A study of Homo sapiens with 8 samples.

Results

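DGKK, NPPC, LPPR4, DLX5, RERG and KIAA0125 are 6 genes that fell strongly when human neuroblastoma cells were given interferon-γ (IFN-γ, a cytokine of T cells and natural killer cells). They are 6 of the 26372 gene symbols of the deposited expression table, and all 6 were among the 13598 genes tested, which averaged at least 0.5 FPKM over the 8 libraries. DLX5 and RERG reached that mean through their untreated libraries, being under 0.5 FPKM on average with IFN-γ. The 6 genes were chosen from the values described here, for falls between untreated and IFN-γ libraries among the largest outside small RNAs and complement genes. Their own falls are therefore given as a description, with no test. The cells were BE(2)-M17, an established neuroblastoma line labelled M17, and RNA depleted of ribosomal RNA was sequenced. The growth protocol also names a second line, SH-SY5Y, but all 8 libraries carry the label M17. The untreated group had 4 libraries and no added agent. The other group had 4 libraries of cells kept for 24 h with IFN-γ at 10 ng/ml. The model is a single tumour line without other cell types of a tissue. Nothing in the labels ties the libraries to separate cultures, and p-values therefore cover only how these libraries vary, possibly for technical reasons. Values are FPKM, fragments per kilobase of transcript scaled to the mapped fragments of the library. In RNA from whole cultures, fewer cells that make an RNA and less RNA per cell cannot be told apart.

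These genes belong to separate systems, some of them known in the nervous system or the neural crest, from which neuroblastoma arises. DGKK encodes a diacylglycerol kinase, an enzyme that converts the second messenger diacylglycerol into phosphatidic acid, and its mRNA is a known target of the fragile X protein FMRP. NPPC encodes the precursor of C-type natriuretic peptide, a secreted ligand that raises cyclic GMP through the receptor NPR2. LPPR4, now named PLPPR4 and also known as plasticity-related gene 1, encodes a neuronal membrane protein that modulates lysophosphatidate signalling at synapses. DLX5 encodes a homeobox transcription factor of neural crest, limb and forebrain, which lies beside its relative DLX6. RERG encodes a small GTPase of the RAS superfamily, first described as an oestrogen-regulated growth inhibitor. KIAA0125, now named FAM30A, is a long non-coding RNA gene inside the immunoglobulin heavy chain locus. GAS and ISRE elements are the DNA motifs known from interferon-responsive promoters.

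Promoters are shown for NPPC and LPPR4, the pair that share the longest stretch of sequence among the members with an entry in the RefSeq promoter table (build GRCh38.p14, 250 bases before to 50 bases after a gene's start). It holds 4 of the 6 members, DGKK, NPPC, LPPR4 and KIAA0125. The NPPC window is chr2:231926347-231926646 on the reverse strand and the LPPR4 window is chr1:99264242-99264541 on the forward strand, both written 5′ to 3′. In GENCODE release 29 the LPPR4 gene begins at 99263953, so its window, set by the RefSeq start, lies inside that annotated span. Capitals mark a stretch of 13 bases found in both windows and, in NPPC, a TATA box.
NPPC: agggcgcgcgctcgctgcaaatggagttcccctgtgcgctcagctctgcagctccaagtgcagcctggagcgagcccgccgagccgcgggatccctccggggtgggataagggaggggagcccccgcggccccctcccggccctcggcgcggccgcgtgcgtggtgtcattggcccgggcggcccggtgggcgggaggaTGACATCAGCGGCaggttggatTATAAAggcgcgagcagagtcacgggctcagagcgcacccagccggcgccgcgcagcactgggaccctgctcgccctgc
LPPR4: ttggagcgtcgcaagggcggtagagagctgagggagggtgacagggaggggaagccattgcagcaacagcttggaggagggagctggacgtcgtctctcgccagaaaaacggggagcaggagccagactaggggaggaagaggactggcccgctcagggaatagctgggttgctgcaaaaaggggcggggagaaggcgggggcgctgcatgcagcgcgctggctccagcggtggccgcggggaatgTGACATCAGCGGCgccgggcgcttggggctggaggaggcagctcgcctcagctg
The stretch TGACATCAGCGGC starts 51 bases before the RefSeq start of NPPC and 4 bases before that of LPPR4. Searched on both strands of 35116 promoters in the table, it was present in 2, those of NPPC and PLPPR4. It was noticed by comparing these sequences, so this count describes it and is no test. It contains TGACATCA, which differs in a single base from the cyclic AMP response element TGACGTCA and was present in 2.61% of all promoters (the element itself in 1.85%). The TATA box TATAAA of NPPC starts 29 bases before its start and was present in 11.5% of promoters. The GAS motif TTCNNNGAA and the ISRE core, GAAA repeated after any 2 bases, had no match on either strand in these 4 windows, and were present in 7.66% and 3.57% of all promoters. The E-box CACGTG, a motif of MYC proteins, had no match either (7.26% of promoters). DGKK, NPPC and LPPR4 each held 2 GC boxes, GGGCGG, a motif present in 45.0% of promoters and overlapping none of the others here. The KIAA0125 window held 3 CG dinucleotides, against 21 to 34 in the other 3 and a median of 14 over all promoters.

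Steps between low FPKM values put the depth at about 13900000 to 20200000 fragments a library. The labels' protocols give a target of 100 M reads a library. Steps were searched only in a range that leaves out a depth at that target, also with each fragment counted as a pair of reads. The inferred depth therefore could not reach the target and is not compared with it. All fragment numbers given here rest on the inferred depth. On log2 values, the lowest Pearson's r was 0.985 among untreated and 0.983 among IFN-γ libraries, and the highest between groups was 0.938. All 6 genes listed as a check of the treatment rose, among them IRF1 from 0.584 ± 0.0404 to 125 ± 2.14 FPKM (SD, n = 4). The noradrenergic neuroblastoma markers HAND2 and PHOX2A were at 307 ± 2.62 and 151 ± 2.34 FPKM in untreated cells. Of the blood cell markers, MS4A1, CD3E and VPREB1 were listed at 0 in all 8 libraries. The small nucleolar RNA SNORD3A took 5.97 to 57.9% of all FPKM in untreated libraries and was listed at 0 with IFN-γ. Rescaling to TPM, in which the values of every library have the same sum, therefore raised the median log2 difference of all genes from -0.0047 to 0.788, and changes in TPM are read against that shift.

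DGKK showed the largest fall of the 6. Untreated libraries held 3.08, 3.42, 3.14 and 3.26 FPKM, and libraries with IFN-γ 0.707, 0.519, 0.623 and 0.690. Every untreated value was at least 4.35 times every IFN-γ value. The mean went from 3.22 ± 0.151 to 0.635 ± 0.085 FPKM (SD, n = 4), which left 19.7% of the untreated level. On the log2(FPKM + 0.1) scale, used for all differences below, this is -2.18 (SE 0.12), and the added 0.1 understates the change of low genes. By the single annotated transcript of 7407 bases, these values stand for about 368 to 478 fragments per untreated library and 53.7 to 103 per IFN-γ library. DGKK lies on chromosome X from 50365409 to 50470738, on the reverse strand (positions here are GRCh38, GENCODE release 29), and is annotated as protein-coding.

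NPPC fell next most and was the least even. Untreated values were 1.63, 1.59, 3.05 and 2.91 FPKM, and those with IFN-γ were 0.555, 0.147, 0.752 and 0.698. The groups did not overlap, with untreated replicates 3 and 4 well above replicates 1 and 2 and IFN-γ replicate 2 well below the rest. The means were 2.29 ± 0.795 and 0.538 ± 0.274 FPKM (SD, n = 4), with 23.5% of the untreated level left and a log2 difference of -1.99 (SE 0.39), or -1.59 without IFN-γ replicate 2. The coefficient of variation was 34.7% untreated, above that of 96.8% of the 934 tested genes of like level. Its transcript is short, 1051 bases at the longest, so only about 2.15 to 14.8 fragments lie behind an IFN-γ value. NPPC spans 231921820 to 231926403 on the reverse strand of chromosome 2.

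LPPR4 had the lowest coefficient of variation of the 6 with IFN-γ (6.89%) and, after DGKK (4.70%), in untreated cells (4.91%). It was at 7.25, 7.56, 8.07 and 7.96 FPKM untreated and at 2.47, 2.11, 2.32 and 2.43 with IFN-γ. All IFN-γ values lay below all untreated values, the lowest untreated being 2.93 times the highest with IFN-γ. From 7.71 ± 0.378 to 2.33 ± 0.161 FPKM (SD, n = 4), 30.3% of the untreated level was left, a log2 difference of -1.68 (SE 0.07). The gene covers 99263953 to 99309590 of chromosome 1 and is read forward.

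KIAA0125 had the highest untreated level of the 6. Its values were 8.44, 8.79, 8.0 and 7.36 FPKM untreated and 2.54, 3.29, 2.92 and 1.94 with IFN-γ, without overlap. The means were 8.15 ± 0.619 and 2.67 ± 0.579 FPKM (SD, n = 4), with 32.8% left and a log2 difference of -1.59 (SE 0.14). The lowest value of each group was in replicate 4. KIAA0125 spans 105917979 to 105932642 on the forward strand of chromosome 14, is annotated as a long intergenic non-coding RNA, and contains the 17-base segment gene IGHD1-1 on the other strand.

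DLX5 and RERG were the lowest in untreated cells. DLX5 was at 1.09, 1.36, 1.10 and 1.09 FPKM untreated and at 0.419, 0.386, 0.282 and 0.378 with IFN-γ, and RERG at 0.870, 1.40, 1.24 and 1.28 and at 0.450, 0.404, 0.299 and 0.512. In neither gene did the groups overlap, although untreated replicate 1 of RERG was only 1.7 times the highest IFN-γ value. DLX5 went from 1.16 ± 0.136 to 0.366 ± 0.0590 FPKM (SD, n = 4), a log2 difference of -1.44 (SE 0.17), and RERG from 1.20 ± 0.229 to 0.416 ± 0.0899, a difference of -1.33 (SE 0.20). With IFN-γ these levels stand for about 6.47 to 11 fragments of DLX5 and 10.9 to 23.4 of RERG per library. DLX5 lies on chromosome 7 from 97020392 to 97024950 and RERG on chromosome 12 from 15107783 to 15348675, both on the reverse strand. RERG overlaps the phosphatase gene PTPRO on the other strand over 26279 bases. Whether strand was used in counting is not given, so fragments of the overlap may be shared between them.

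**Figure D1:**
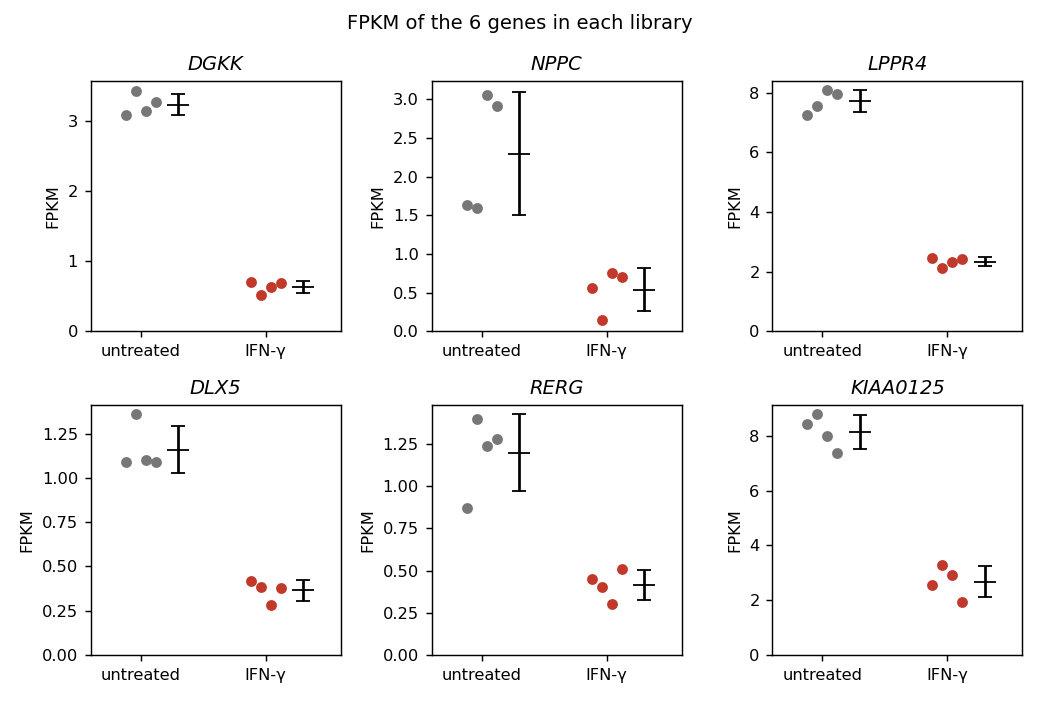
FPKM of each gene in each library. Points are libraries in order of replicate number (grey untreated, red IFN-γ), and the bar beside them is the mean ± SD (n = 4). The groups do not overlap in any of the 6 panels, and NPPC spreads most, from 1.59 to 3.05 FPKM untreated.

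In untreated cells the order of FPKM levels was KIAA0125, LPPR4, DGKK, NPPC, RERG and DLX5. Single values overlapped between KIAA0125 and LPPR4 and between RERG and DLX5, and did not between the other neighbours in that order. With IFN-γ the order was the same. The values of LPPR4 and DGKK remained apart, while those of DGKK and NPPC, NPPC and RERG, and RERG and DLX5 overlapped. All 6 were below the middle of the tested genes, at percentiles 11.1 (DLX5) to 47.3 (KIAA0125) of untreated FPKM and 0.147 (DLX5) to 22.4 (KIAA0125) with IFN-γ.

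The choice of these 6 left out some falls of like size. Of the tested genes, 3039 (22.3%) passed a limma adjusted p of 0.05 in either direction, 1748 (12.9%) had all IFN-γ values below all untreated values and 1230 (9.05%) were called lower by limma, 37 of them (0.272%) with a log2 difference of -1 or less. A total of 27 tested genes had a log2 difference at or below that of RERG: the 6 members, 7 short RNA genes, 3 genes under 1 FPKM untreated and 11 others. Of the 11, DEAR (-2.26) fell more than DGKK, TM4SF19-AS1 (-2.02) more than NPPC and H3F3A (-1.90) more than LPPR4. These genes were not called or their groups overlapped, so the ranking below leaves them out. Ranked among called genes without overlap and with at least 1 FPKM untreated, the members held ranks 2, 3, 4, 6, 7 and 10. SNORD3A held rank 1. Between them stood SOCS2, an inhibitor of cytokine receptors, at -1.60 (rank 5), DCX, a microtubule protein of young neurons, at -1.35 (rank 8), and the complement gene C7 at -1.33 (rank 9). The next ranked fall after RERG (-1.33) was DGKB at -1.31, followed by LGR5 at -1.25, HS3ST2 at -1.24, MGLL at -1.20 and GABRB1 at -1.18.

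**Figure D2:**
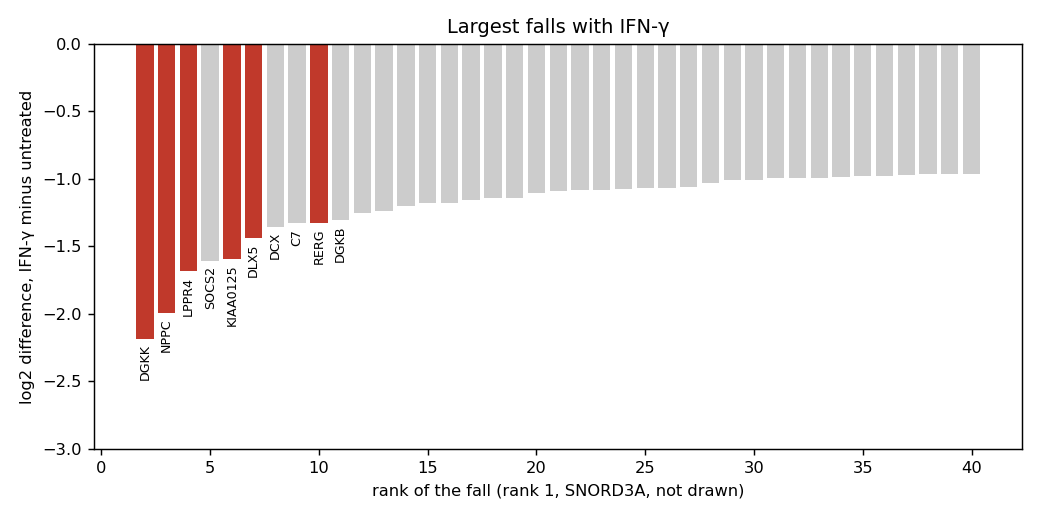
Log2 difference (IFN-γ minus untreated) of the called falls ranked 2 to 40, among genes with at least 1 FPKM untreated and no overlap between groups. Red bars are the 6 genes and grey bars are others; the falls go from -2.18 (DGKK) through -1.33 (RERG, rank 10) to -0.96 at rank 40.

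Across the 8 libraries the 6 patterns were much alike, as their choice requires. The highest Pearson's r of log2 values was between DGKK and LPPR4 (0.998), each being the tested gene most like the other, and the lowest between NPPC and KIAA0125 (0.748). After DGKK and LPPR4, the GABA receptor subunit gene GABRA4 came next for both (r = 0.994 and 0.997), from 31.1 ± 0.972 to 19.6 ± 0.308 FPKM (SD, n = 4). The cell adhesion genes NRCAM (r = 0.994 with DGKK) and ALCAM (r = 0.996 with LPPR4) went from 69.3 ± 0.696 to 43.8 ± 0.561 and from 83.6 ± 1.95 to 57.9 ± 1.35 FPKM. SH3RF1, ARHGAP31 and ADGRB2 were most like DLX5 (r = 0.989 to 0.991), MAN1A1, KIZ and IPO5 most like RERG (0.983 to 0.998), and APBA1, LOC100506548 and FAM109A most like KIAA0125 (0.994 to 0.996). For NPPC these were EGLN1, SLC35C2 and SEMA6D (0.972 to 0.984). These r are descriptions over 8 libraries that share the split by treatment, and 17 tested genes (NPPC) to 240 (KIAA0125) had an r over 0.95 with a member. MAN1A1 and SLC35C2 changed little (log2 difference -0.10 and -0.29), so a like pattern does not mean a like size.

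Within groups the members did not vary as a block. Over deviations from the group mean in 8 libraries, Pearson's r was 0.86 between NPPC and LPPR4, 0.78 between DGKK and LPPR4 and 0.71 between DLX5 and RERG. KIAA0125 had a negative r with each of the other 5, from -0.72 (LPPR4) to -0.05 (DLX5). These are descriptions of 8 libraries with shared depth.

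Other diacylglycerol kinases moved less than DGKK. Of 8 tested, 2 were called lower and none higher by limma (median log2 difference -0.15, against -0.0047 for all genes tested, of which 9.05% were called lower and 13.3% higher). DGKB, a neuronal kinase of the family, was at 1.30, 0.983, 1.07 and 1.21 FPKM untreated and at 0.599, 0.311, 0.299 and 0.439 with IFN-γ, without overlap. Its log2 difference was -1.31 (SE 0.21). DGKB passed the filter through its untreated libraries, where it is high, so its call is no independent support. DGKD, a broadly expressed member, fell from 10.7 ± 0.320 to 8.87 ± 0.571 FPKM (limma adjusted p = 0.00808). As FPKM is per length, the summed family can be compared: DGKK made up 9.22 ± 0.525% of the FPKM of the 10 kinases untreated, the fourth highest, and 2.26 ± 0.368% with IFN-γ, the eighth (SD, n = 4).

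A list of genes that make or sense diacylglycerol, which also holds FMR1, the gene of FMRP, changed in both directions. Of its 19 tested genes, 4 rose (21.1%), FMR1 among them, and 5 fell (26.3%), with a median of -0.11. The shares over all genes tested were 13.3% and 9.05%. RASGRP3, a diacylglycerol-responsive activator of RAS proteins, rose from 0.122, 0.218, 0.231 and 0.158 FPKM to 0.936, 0.907, 0.818 and 0.859, a log2 difference of 1.81 (SE 0.21). It passed the filter only through the IFN-γ libraries, where it is high, so its call is no independent support. PRKD2, a protein kinase D, rose from 8.70 ± 0.426 to 13.5 ± 1.24 FPKM. PRKCA, a protein kinase C, fell from 21.0 ± 0.608 to 14.8 ± 1.94 and PLCD4, a phospholipase C, from 7.68 ± 0.235 to 4.80 ± 0.543. FMR1 rose from 15.9 ± 0.370 to 21.3 ± 0.743 FPKM (0.42, limma adjusted p = 3.9e-05). FMR1 is named because of its known link to DGKK mRNA, after its values were seen.

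In the natriuretic peptide system, NPPA and NPPC went in opposite directions, both at low levels. NPPA, which encodes atrial natriuretic peptide, lay below the filter of 0.5 FPKM and so was not in the tested set. It was at 0.186, 0, 0.0940 and 0.0936 FPKM untreated and at 0.493, 0.652, 0.463 and 0.222 with IFN-γ, without overlap and opposite in direction to NPPC. Fitted without the filter, its log2 difference was 1.56 (limma adjusted p = 0.018). At these levels a library holds few fragments of NPPA, which was named after its values were seen. NPPC made up 94.5 ± 7.17% of the summed FPKM of NPPA, NPPB and NPPC untreated and 52.3 ± 24.5% with IFN-γ (SD, n = 4). Among receptors, NPR2, that of C-type natriuretic peptide, was at 4.34 ± 0.230 and 3.95 ± 0.194 FPKM and did not pass the test (limma adjusted p = 0.208). NPR1, the receptor of the atrial and brain peptides, fell from 0.913, 0.976, 0.931 and 1.02 FPKM to 0.421, 0.408, 0.541 and 0.572 (log2 difference -0.87, SE 0.16), and it too passed the filter through its untreated libraries. NPR3, the clearance receptor, was at 0.0734 ± 0.0320 and 0.0541 ± 0.0259 and not tested. Of 12 tested genes of this list, 3 rose (25.0%, against 13.3% of all genes tested) and 2 fell (16.7%, against 9.05%). The median was -0.08. GUCY1A3 and GUCY1B3, subunits of the nitric oxide receptor that also makes cyclic GMP, rose from 36.2 ± 1.55 to 40.8 ± 0.747 and from 11 ± 0.454 to 13.6 ± 0.758 FPKM, and GUCY1A3 missed the threshold with quantile normalization (limma adjusted p = 0.216) and in TPM without short RNA genes (0.383). PDE3B, a phosphodiesterase, fell from 7.89 ± 0.369 to 6.64 ± 0.478. Leaving out untreated replicate 1, untreated replicate 2 or IFN-γ replicate 2 ended this call (limma adjusted p = 0.0535 to 0.0687).

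LPPR4 fell with its relative LPPR5, a neighbour on the other strand of chromosome 1. LPPR5 was at 2.74, 3.69, 3.33 and 3.25 FPKM untreated and at 2.10, 1.81, 2.06 and 2.11 with IFN-γ, without overlap (log2 difference -0.65, SE 0.11, limma adjusted p = 0.00137). The share of LPPR4 in the summed FPKM of the 5 family genes was 38.0 ± 1.21% untreated and 18.8 ± 1.14% with IFN-γ (SD, n = 4). Around this family, 3 of 12 tested genes of lysophospholipid signalling rose and 3 fell, LPPR5 among them (median -0.06). That is 25.0% each, against 13.3% and 9.05% of all genes tested. ENPP2, the secreted enzyme autotaxin that makes lysophosphatidate, fell from 77.4 ± 1.19 to 55.5 ± 2.81 FPKM (-0.48, limma adjusted p = 1.5e-05). LPAR1, a lysophosphatidate receptor, rose from 5.98 ± 0.324 to 9.04 ± 0.267 (0.59, limma adjusted p = 3.3e-05). S1PR3, a receptor of sphingosine 1-phosphate, rose from 2.17 ± 0.252 to 2.81 ± 0.112, a call lost without any of untreated replicates 2 to 4 or IFN-γ replicates 1 and 2 (limma adjusted p = 0.0540 to 0.0718). S1PR1, under the filter, was at 0.257, 0.201, 0.238 and 0.236 FPKM untreated and at 0.0698, 0.0230, 0.0195 and 0 with IFN-γ (-1.40 without the filter, limma adjusted p = 6.7e-04).

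Homeobox relatives of DLX5 went in the same direction where they passed the test. Of 4 tested genes of the DLX and MSX list, 2 fell and none rose (median -0.50). Of all genes tested, 9.05% fell and 13.3% rose, and 4 genes are too few to set against these shares. MSX1 (-0.15) was not called. DLX6 was at 5.77, 5.09, 6.05 and 5.05 FPKM untreated and at 3.92, 3.66, 3.45 and 4.12 with IFN-γ, without overlap (log2 difference -0.52, SE 0.09, limma adjusted p = 0.00146). MSX2 fell from 6.02 ± 0.981 to 3.76 ± 0.546 FPKM (-0.66, limma adjusted p = 0.00529). DLX6-AS1, a non-coding RNA transcribed against DLX6, was at 1.11 ± 0.209 and 0.768 ± 0.162 and did not pass (limma adjusted p = 0.0967). DLX3, under the filter, was at 0.565, 0.459, 0.260 and 0.422 untreated and at 0.208, 0.137, 0.140 and 0.113 with IFN-γ (-1.06 without the filter, limma adjusted p = 0.0115). The 8 genes of GABA neurons linked to DLX factors, GAD1 and GAD2 among them, were all under the filter, with a summed FPKM of 0.236 to 0.418 untreated and 0.164 to 0.293 with IFN-γ.

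BMP signalling, which induces DLX5 and MSX2 in development, changed in both directions. Of 16 tested genes 5 rose (31.2%, against 13.3% of all genes tested) and 3 fell (18.8%, against 9.05%), with a median of 0.07. ACVR1, a receptor, rose from 10.9 ± 0.582 to 16.5 ± 0.971 FPKM and ID2, a BMP target, from 75.3 ± 2.21 to 98.5 ± 11. The antagonist GREM1 fell from 24.3 ± 0.546 to 19.0 ± 1.22 and the decoy receptor BAMBI from 14.0 ± 1.07 to 11.1 ± 0.768.

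Of 24 tested RAS-like GTPases other than RERG, 4 rose (16.7%, against 13.3% of all genes tested) and 1 fell (4.17%, against 9.05%), with a median of 0.10. RALB, a relative of RAS in exocytosis and innate immune signalling, rose from 10.9, 10.6, 11.9 and 12 FPKM to 23.5, 22.1, 23.4 and 26.6 (log2 difference 1.07, SE 0.07, limma adjusted p = 1.1e-06). MRAS rose from 8.39 ± 0.788 to 12.7 ± 0.329 FPKM, and RASL10B fell from 14.3 ± 0.241 to 11.6 ± 0.683 (-0.30). RAP1A rose from 13.1 ± 0.115 to 14.7 ± 0.699, with a limma adjusted p from 0.0133 to 0.361 over the alternatives and above 0.05 in 9 of them. The oestrogen receptor gene ESR1, through which RERG was described, was at 0.0179 ± 0.0169 and 0.0190 ± 0.0235 FPKM, and ESR2 at 0.866 ± 0.221 and 1.35 ± 0.356 (limma adjusted p = 0.0839).

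**Figure D3:**
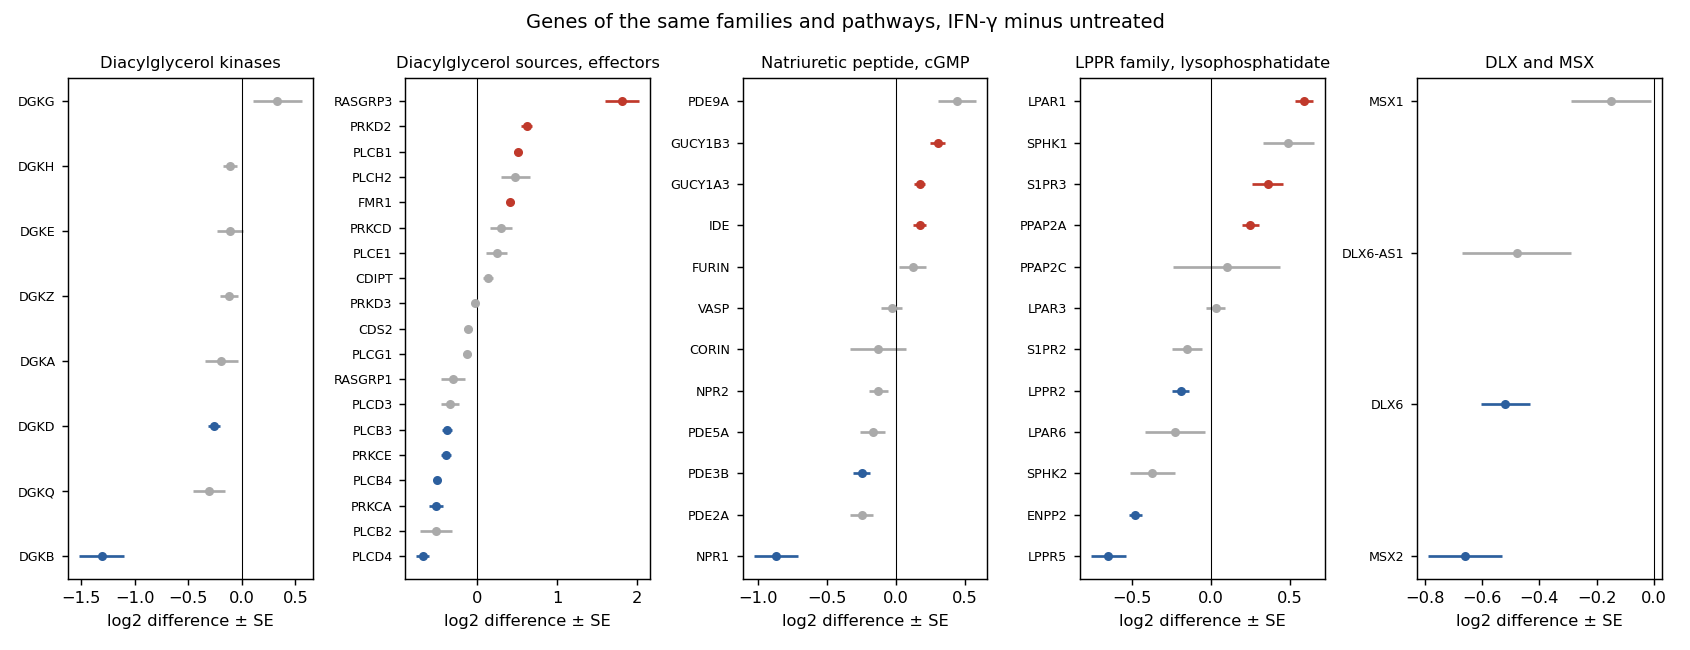
Log2 difference ± SE (IFN-γ minus untreated) of tested genes in 5 lists around DGKK, NPPC, LPPR4 and DLX5. Red points were called higher, blue lower and grey neither (limma adjusted p of 0.05); DGKB at -1.31 is the lowest kinase and RASGRP3 at 1.81 the highest point, both having passed the filter through the group where they are high.

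Genes beside the members were looked at within 500 kb of each. Of 27 tested, 8 were called lower (29.6%, against 9.05% of all genes tested) and 2 higher (against 13.3% of all genes tested). Near DGKK all 3 tested genes fell, each by less than DGKK: SHROOM4, an actin-binding protein gene 120.9 kb away, from 2.93 ± 0.227 to 2.05 ± 0.306 FPKM (-0.51), the deubiquitinase gene USP27X from 2.38 ± 0.258 to 1.71 ± 0.194 (-0.45), and the chloride transporter gene CLCN5 from 26.2 ± 2.01 to 22.4 ± 1.68 (-0.23). The call of USP27X was lost without untreated replicate 2 or 3 (limma adjusted p = 0.0661 and 0.0593). For CLCN5, leaving out any library but untreated replicate 2 or IFN-γ replicate 3 did so (limma adjusted p = 0.0552 to 0.0983). Near LPPR4, beside LPPR5, PALMD fell from 5.76 ± 0.376 to 3.47 ± 0.284 FPKM (-0.72) and FRRS1, 399.0 kb away, rose from 0.727 ± 0.107 to 1.44 ± 0.193 (0.89). PTPRO, which overlaps RERG, fell from 3.90, 4.09, 4.17 and 4.60 FPKM to 3.46, 3.17, 3.17 and 3.20 (-0.36, limma adjusted p = 0.00675), and the 5 other tested genes near RERG were not called. Near NPPC, COPS7B and DIS3L2 on either side did not pass (limma adjusted p = 0.648 and 0.919), and PDE6D was called higher (0.23), a call lost under 11 alternatives. Near KIAA0125 only MTA1 was called among 6 tested genes, at 60.2 ± 1.55 and 54.4 ± 0.666 FPKM (-0.15). ADAM6, a pseudogene 37.1 kb away, was at most 0.0345 FPKM in any library.

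**Figure D4:**
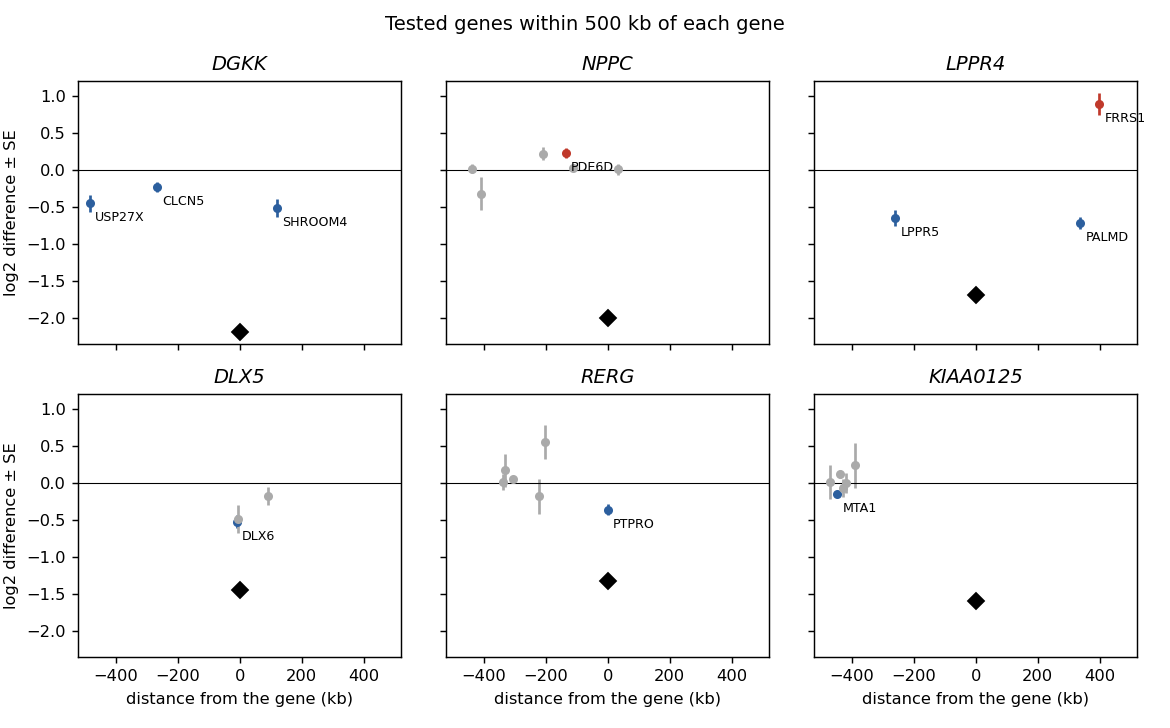
Log2 difference ± SE of tested genes against their distance from each of the 6 genes, in kb, negative toward lower coordinates. Diamonds are the 6 genes, blue points were called lower, red higher and grey neither; all 3 points beside DGKK are blue, at -0.51 to -0.23.

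Markers of other cells were read beside these falls. For KIAA0125, known in B cells, 11 blood cell markers summed to 29.6 to 30.8 FPKM untreated and 28.3 to 34.7 with IFN-γ. Nearly all of this was PAX5 (13.9 ± 0.642 and 14.7 ± 2.40) and EBF1 (16.0 ± 0.253 and 16.5 ± 0.541). CD14 was at 0.355 ± 0.168 and 0.429 ± 0.0713 FPKM, PTPRC at 0.0310 ± 0.0148 and 0.0635 ± 0.0158, and CD79A at 0.0430 ± 0.0296 and 0.0572 ± 0.0510, while MS4A1, CD3E and VPREB1 were listed at 0. The part of blood cells in the level of KIAA0125 was not tested. Of 7 fibroblast markers, 4 were tested, 2 rose and 1 fell. Of all genes tested, 13.3% rose and 9.05% fell, and 4 genes are too few to set against these shares. The sum of the fibroblast markers was 166 to 177 FPKM untreated and 184 to 239 with IFN-γ. Most of this sum was DCN, at 140 ± 4.40 and 143 ± 22.3 FPKM (limma adjusted p = 0.883). PDGFRB rose from 8.20 ± 0.442 to 21.0 ± 1.52 FPKM and LUM from 20.3 ± 0.923 to 32.5 ± 6.29, COL1A1 fell from 1.86 ± 0.0528 to 1.37 ± 0.170 (lost without untreated replicate 2, 3 or 4), and COL1A2 was listed at 0 in all 4 untreated libraries. The part of fibroblast-like cells in the falls was not tested. The 6 Schwann and glial markers summed to 2.40 to 2.63 FPKM untreated and 2.59 to 3.22 with IFN-γ.

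The size of the members' falls depended on the scale and their direction did not in any scaling or pseudocount tried. As their groups do not overlap, no pseudocount could change the direction, so this is a description and no support. With a pseudocount of 1, DLX5 and RERG came to -0.66 and -0.63. In TPM the 6 differences were -1.46 (DGKK) to -0.65 (RERG), which is -2.25 to -1.44 relative to the shifted median.

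**Figure D5:**
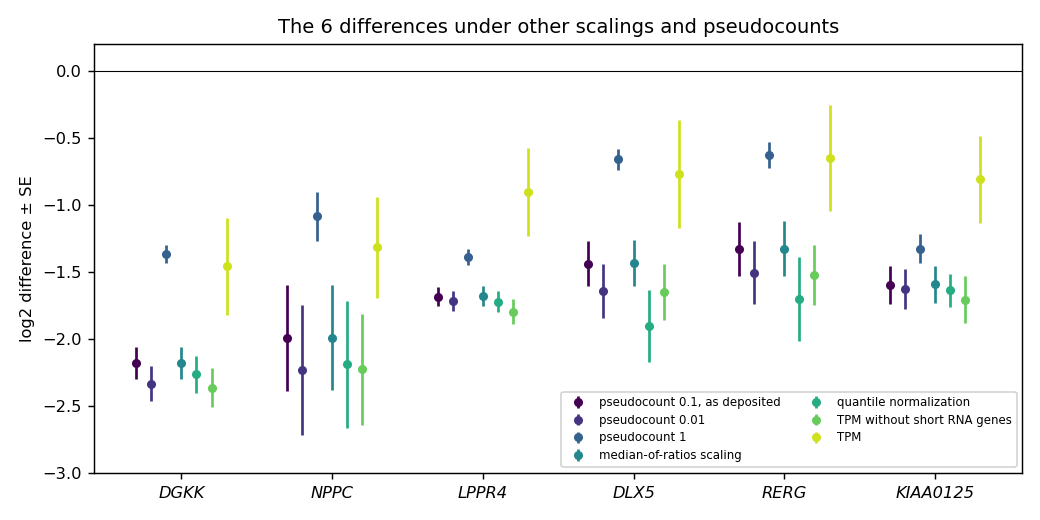
Log2 difference ± SE of each gene with the deposited FPKM and under other pseudocounts and scalings. All points lie below 0; TPM and a pseudocount of 1 give the smallest falls, -0.65 and -0.63 for RERG.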

How the data were processed

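RNA of 8 libraries of BE(2)-M17 cells was measured, grouped by the treatment in the labels. Per the labels' protocols, 1 µg of total RNA a library was sequenced as pairs of 150 nt reads. The deposited values are FPKM per gene, made by the authors with TopHat2 and Cuffdiff on hg38, per the submitters' processing notes, with annotation, options and scaling between libraries not given in the sources used here. They hold no counts, so no count model was used.

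The members and the 15 gene lists were chosen with earlier results of these data known. Genes averaging 0.5 FPKM or more were compared as log2(FPKM + 0.1) by limma 3.58.1 (R 4.3.3) with a mean-variance trend, two-sided, with Benjamini-Hochberg adjustment over 13598 genes and a threshold of 0.05. The fit was tested on simulated data. Other scalings, pseudocounts, filters and left-out libraries were tried as alternatives.

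Named genes are the members, the most changed called genes of each list (up to 4) and neighbourhood, the nearest tested neighbours, the 3 most alike genes per member and the 15 largest ranked falls. Others (FMR1, ESR2, NPR2, NPR3, DEAR, TM4SF19-AS1, H3F3A, markers and genes under the filter) were named after their values were seen. Positions come from GENCODE release 29, which matched 92.64% of the symbols. Fragment numbers use the longest transcript and are approximate, and 1 fragment per kilobase was worth 0.0496 to 0.0717 FPKM. Replicate numbers were not taken to pair the samples. Some genes of the lists are not reported here.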

Additional observations from a re-analysis of the deposited data

Results flagged for a closer look

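In 176 groups of 4 libraries (88 named genes, 2 groups each), 13 held a library that stood apart from the other 3 by more than the 95% critical value of Dixon's test. Chance flags about 1 in 20 groups. Among the 6 genes this touched DLX5, where untreated replicate 2 was at 1.36 FPKM. IFN-γ replicate 4 was the library in 4 cases: GREM1 at 20.8, LUM at 41.9, SHROOM4 at 1.59 and TAP1 at 381 FPKM. Untreated replicate 4 stood apart for FRRS1 at 0.886, MRAS at 7.22 and TMEM121 at 0.876, and untreated replicate 3 for ALCAM at 86.6 and GBP1 at 0.0397. The others were MAN1A1 in untreated replicate 1 (44.1), PTPRO in IFN-γ replicate 1 (3.46) and SLC35C2 in IFN-γ replicate 2 (6.5).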

How the results depend on the processing

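Depth limits the lowest members most: NPPC with IFN-γ rests on about 2.15 to 14.8 fragments per library. As the groups of the 6 genes do not overlap, no pseudocount or left-out library could change the sign of their log2 differences. These kept their sign under every alternative, which is a description and no support. With a pseudocount of 1 they were -1.37 (DGKK), -1.09 (NPPC), -1.39 (LPPR4), -0.66 (DLX5), -0.63 (RERG) and -1.33 (KIAA0125), since a larger constant shrinks low values. With 0.01 DGKK was -2.33 and DLX5 -1.645. Quantile normalization gave DLX5 -1.90 and RERG -1.70. In TPM without short RNA genes DGKK was -2.37, LPPR4 -1.80 and DLX5 -1.65, and in TPM DGKK was -1.46, LPPR4 -0.90, DLX5 -0.77, RERG -0.65 and KIAA0125 -0.81. Leaving out each library gave -2.23 to -2.10 (DGKK), -2.18 to -1.59 (NPPC), -1.71 to -1.64 (LPPR4), -1.49 to -1.35 (DLX5), -1.46 to -1.21 (RERG) and -1.70 to -1.46 (KIAA0125). With the filter at 1 FPKM, DLX5 and RERG were not in the fit.

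Over all genes, 1809 were called higher and 1230 lower (limma). TPM gave 9442 and 20, TPM without short RNA genes 1145 and 1778, and quantile normalization 1470 and 2564. Without IFN-γ replicate 4 there were 2165 and 1698, the highest when a library was left out, and the lowest were 1474 and 854 without untreated replicate 2. Of the pathway list genes 23 were called in each direction. TPM gave 72 higher and 0 lower and TPM without short RNA genes 13 higher. Leaving out a library gave 17 to 29 higher and 20 to 24 lower. Of the neighbours 2 were called higher and 8 lower: 13 and 0 in TPM, 1 higher without the filter or with the replicate block, 1 to 2 higher and 6 to 8 lower with a library left out, and 7 higher and 12 lower within 1000 kb. Same-numbered libraries deviated together at r = -0.0275 to 0.079, so the numbers are not taken as pairs. With the replicate number as a block, 1639 genes were called higher and 1017 lower, and 20 and 22 of the pathway lists.

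In TPM, 39 of the named genes other than members changed sign. All 39 kept it relative to the median shift of 0.788. Their log2 differences there were ADGRB2 0.17, ALCAM 0.27, APBA1 0.34, ARHGAP31 0.15, BAMBI 0.47, CLCN5 0.58, COL1A1 0.33, CPE 0.41, CRH 0.18, DGKD 0.53, DLX6 0.26, EGLN1 0.68, ENPP2 0.32, FAM109A 0.15, GABRA4 0.14, GATA3 0.76, GREM1 0.45, HAND2 0.76, IPO5 0.65, KIZ 0.44, LOC100506548 0.53, LPPR5 0.12, MAN1A1 0.70, MSX2 0.13, MTA1 0.66, MYCN 0.66, NPY 0.37, NRCAM 0.14, PALMD 0.069, PDE3B 0.55, PLCD4 0.12, PRKCA 0.29, PTPRO 0.43, RASL10B 0.50, SEMA6D 0.41, SH3RF1 0.35, SHROOM4 0.27, SLC35C2 0.50, USP27X 0.31. Of these, EGLN1, GATA3, HAND2, MAN1A1 and MYCN passed the threshold there. TPM also ended the calls of C7, DCX, DGKB, GABRB1, HS3ST2, LGR5, MGLL and NPR1, without a change of sign. The causes were not tested beyond the shift itself.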

Other observations

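Neuropeptides and granins, listed around NPPC as the other cargo of secretory granules, changed in both directions. Of 15 tested genes 3 rose (20.0%, against 13.3% of all genes tested) and 5 fell (33.3%, against 9.05%; limma). The median log2 difference was 0.05. CHGA, a granin, rose from 481 ± 11.4 to 641 ± 13.1 FPKM (SD, n = 4), and the granin-like VGF and CHGB were called higher with it (0.37 and 0.27 on the log2 scale). NPY fell from 291 ± 9.12 to 217 ± 42.7, CRH from 2.49 ± 0.368 to 1.65 ± 0.380, and CPE, which trims peptide precursors, from 58.0 ± 2.57 to 44.2 ± 5.45. The call of NPY was lost without untreated replicate 3 or IFN-γ replicate 1 (limma adjusted p = 0.0509 and 0.0501), and that of CRH without any of the 4 untreated replicates or IFN-γ replicate 1 or 3 (0.0513 to 0.0987). VGF and CHGB were chosen after their values were seen. The precursors GAL, at 946 ± 14.4 and 986 ± 100.2 FPKM, and SST, at 9.17 ± 0.809 and 8.11 ± 1.40, did not pass.

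Of 54 pathway list genes under the filter but not at 0 throughout, 4 were called lower and 2 higher when fitted without it. Beside NPPA, S1PR1 and DLX3 these were DGKI, a further diacylglycerol kinase (0.467 ± 0.0516 and 0.255 ± 0.0602 FPKM), RASL10A, a RAS-like GTPase (0.109 ± 0.0302 untreated, listed at 0 in 2 of 4 IFN-γ libraries), and CHRD, a BMP antagonist (listed at 0 in 2 of 4 untreated libraries, 0.188 ± 0.0995 with IFN-γ). At these levels a library holds few fragments of each gene. The fit without the filter took all 26372 symbols but the 6347 at 0 throughout, and called 1147 lower and 1860 higher. Over the 10 pathway lists together, 23 of 118 tested genes rose and 23 fell, 19.5% each, against 13.3% and 9.05% of all genes tested.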
